A study of Rattus norvegicus with 48 samples.

Results

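The hearts of 10 female rats that had all received methamphetamine, a psychostimulant that releases catecholamines, were compared between 2 times after the last injection. The members were chosen by sample title: female, methamphetamine, replicates 1, 2, 3, 4 and 6 of each time, which gave 10 of the 47 libraries in the table. Replicate 5 was not used in any group. All were Sprague Dawley rats, 8 weeks of age at the start, given 5 mg/kg methamphetamine under the skin once a day at 10:00 for 10 days in a light cycle that began at 07:00. In 5 rats left ventricular tissue was taken 24 h after the last dose (day 11 hearts), and in the other 5 it was taken 30 days after the last dose (abstinence hearts). The groups used beside them were 9 saline-injected females at the same times (4 at day 11 and 5 after abstinence) and 10 methamphetamine-treated males, again without replicate 5. No transgene or deletion was involved, and the rats came from a breeding colony in which each litter was spread over the groups. All day 11 libraries were sequenced in 1 pool and all abstinence libraries in another, and the abstinence rats were older at collection, so time, pool and age cannot be told apart in what follows.

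Total counts on genes ran from 9175298 to 11068915 in the day 11 libraries and from 7663300 to 9304837 in the abstinence libraries. None of the 8 ventricular cardiomyocyte markers and none of the 4 Y-linked markers could be given an identifier, so the labels of tissue and sex could not be checked by them. The abstinence libraries differed more from each other than the day 11 libraries did. The median SD of a gene over the 5 libraries was 0.25 on the log2 CPM scale (CPM, gene counts brought to an equal total per library, with TMM-scaled totals) after abstinence and 0.12 at day 11, against 0.20 and 0.16 in saline-injected females. Abstinence replicate 2 lay farthest from its group, with a distance of 0.48 from the group median on the log2 scale, against 0.23 to 0.35 in the other abstinence libraries and 0.17 to 0.21 at day 11. The abstinence rats also fell into 2 ranges of animal number: replicates 1, 2 and 3 carried numbers up to 4000, and replicates 4 and 6 carried numbers above 4300, as did all 5 day 11 rats. What the ranges stand for is not stated in the labels.

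Several of the genes described below belong to the circadian clock, which runs in heart muscle as in most tissues. BMAL1 (encoded by Arntl) pairs with CLOCK or NPAS2 and switches on the Per and Cry genes, the nuclear receptors Nr1d1 and Nr1d2, and output genes such as Dbp and Tef. The PER and CRY proteins then block that pair, while NR1D1 and NR1D2 repress Arntl, so Arntl and the Per genes peak at different times of day. A single collection time therefore samples 1 phase of each animal's cycle.

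Promoter sequences are shown for 3 genes of the loop and for Tef, an output gene, chosen because their windows hold the motifs named in the next sentences. They come from RefSeq (GRCr8 build, 250 bases before to 50 bases after the start of transcription, on the strand of the gene), and 13 of the 15 clock genes tested had at least 1 such window. Cry1 and Tspan4 had none. Capitals mark the motifs searched on both strands: the E-box CACGTG and its variant CACGTT, bound by the BMAL1 pair, the D-box TTATGTAA or TTACGTAA, bound by DBP and TEF, and AGGTCA, the core of the element bound by the NR1D receptors and their ROR competitors. No 2 matches overlapped in any window. The windows of Clock, Npas2, Per3, Dbp and Nfil3 held none of these motifs.
Arntl (Bmal1), chr1:176766078-176766377, plus strand: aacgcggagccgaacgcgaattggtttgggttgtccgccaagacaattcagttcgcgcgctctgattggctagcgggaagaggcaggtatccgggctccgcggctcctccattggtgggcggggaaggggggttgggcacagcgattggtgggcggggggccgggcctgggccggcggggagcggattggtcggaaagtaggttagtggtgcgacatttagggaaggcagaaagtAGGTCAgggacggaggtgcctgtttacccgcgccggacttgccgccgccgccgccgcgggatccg
Per2, chr9:99496944-99497243, minus strand: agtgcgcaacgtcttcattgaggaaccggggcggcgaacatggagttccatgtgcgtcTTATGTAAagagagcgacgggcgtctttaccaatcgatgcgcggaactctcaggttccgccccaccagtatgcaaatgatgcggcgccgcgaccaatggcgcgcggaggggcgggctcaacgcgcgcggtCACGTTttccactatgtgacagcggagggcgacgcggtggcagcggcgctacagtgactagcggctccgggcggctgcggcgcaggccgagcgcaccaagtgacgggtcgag
Nr1d1, downstream of its 2 starts, chr10:84229405-84229704, minus strand: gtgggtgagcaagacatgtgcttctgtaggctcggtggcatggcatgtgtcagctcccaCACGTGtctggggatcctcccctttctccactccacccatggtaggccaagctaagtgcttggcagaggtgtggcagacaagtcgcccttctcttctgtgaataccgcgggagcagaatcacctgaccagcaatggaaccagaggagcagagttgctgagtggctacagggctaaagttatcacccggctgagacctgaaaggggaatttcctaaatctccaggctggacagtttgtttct
Tef, chr7:115206577-115206876, plus strand: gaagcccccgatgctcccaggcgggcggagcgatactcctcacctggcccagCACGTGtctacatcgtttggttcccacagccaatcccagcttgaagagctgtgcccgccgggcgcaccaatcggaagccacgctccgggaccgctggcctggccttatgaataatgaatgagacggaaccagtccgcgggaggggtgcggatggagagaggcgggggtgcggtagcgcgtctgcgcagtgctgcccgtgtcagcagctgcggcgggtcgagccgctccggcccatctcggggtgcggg
The AGGTCA of Arntl began 15 bases before the start, the CACGTT of Per2 62 bases and its D-box 192 bases before it, and the CACGTG of Nr1d1 and of Tef 191 and 198 bases before it. Of all 33469 rat windows, 6.42% held CACGTG, 4.83% CACGTT, 1.01% a D-box and 16.2% AGGTCA. The 13 clock genes had 15 windows, of which CACGTG was in 2, CACGTT in 3, a D-box in 1 and AGGTCA in 4. The counts by gene were the same. These matches describe the letters in short windows, and binding was not measured.

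Between day 11 and abstinence, 485 of 13736 genes tested changed (3.53%), 259 of them higher after abstinence (1.89%) and 226 lower (1.65%), by edgeR's quasi-likelihood test at a Benjamini-Hochberg adjusted p under 0.1. Of these, 133 differed at least 2-fold, 102 higher and 31 lower. The CPM values of the 2 groups did not overlap in 352 of the 485, and over all genes tested they did not overlap in 4.49%. Across all genes tested the median log2 fold change was 0.01. Symbols could be given to 328 of the tested genes, and 88 of them were called, 38 higher and 50 lower. These symbols come from the study's own lists of genes that responded to methamphetamine, which were drawn up with the day 11 libraries included. The 26.8% called among them is therefore not set against the 3.53% as evidence, and the same holds for each gene list below, since only members on the study's lists could be given an identifier. The other 397 called genes had an identifier only. In bulk tissue, fewer cells of a type and less RNA per cell cannot be told apart.

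Of 5 activators, 10 repressors and 8 output genes of the clock listed, the 15 with a symbol from the study's lists were tested, and 3 rose after abstinence and 6 fell (of all genes tested 1.89% rose and 1.65% fell, and of the 328 genes with a symbol 38 rose and 50 fell). Of the 3 activators 2 rose, with a median log2 fold change of 2.09 over the list. Of the 6 repressors 3 fell and 1 rose, with a median of -0.85, and of the 6 output genes 3 fell and none rose, with a median of -0.48. The lists were drawn up with earlier results of these data known, so these counts are not independent evidence. Tspan4, a membrane protein and 1 of the 3 output genes that fell, counts as a clock gene only through its list. Each count of clock genes called includes it among the genes tested. The medians over all genes tested were 0.01.

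Arntl carried the largest change of the called genes with a symbol. Its level was 2.05, 1.93, 2.48, 1.94 and 1.51 CPM in the day 11 hearts (replicates 1, 2, 3, 4 and 6), which rests on 17 to 25 counts per library. After abstinence it was 38.8, 47.6, 26.4, 11.4 and 10.2 CPM, or 93 to 358 counts. All 5 abstinence hearts were above all 5 day 11 hearts, by 13.5-fold on average (log2 fold change 3.75 ± 0.44 SE, adjusted p = 0.00214). With replicate 5 kept in both groups, Arntl was not called (log2 fold change 1.10, adjusted p = 0.622). Npas2, the alternative partner of BMAL1, read 2.91, 3.87, 4.77, 3.70 and 4.79 CPM at day 11. It read 25.4, 26.9, 15.4, 8.73 and 9.56 CPM after abstinence, again with no overlap (log2 fold change 2.09 ± 0.32, adjusted p = 0.00799). With replicate 5 kept, Npas2 was not called either (log2 fold change 1.195, adjusted p = 0.308). In both genes replicates 1 to 3 were higher than replicates 4 and 6. Clock, the usual partner of BMAL1, read 40.2 to 44.4 CPM at day 11 and 40.2 to 80.2 CPM after abstinence, and was not called (log2 fold change 0.48 ± 0.15, adjusted p = 0.132).

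The repressors did not move as 1 group. Per2 lay within a narrow band at day 11, at 135, 138, 141, 135 and 136 CPM, and at 23.8, 12.3, 21.0, 80.5 and 65.9 CPM after abstinence. Every abstinence heart was below every day 11 heart (log2 fold change -1.74 ± 0.39, adjusted p = 0.0433). Per3 behaved alike in level, at 125, 127, 129, 124 and 149 CPM at day 11 and 33.9, 16.2, 44.5, 89.0 and 78.1 CPM after abstinence (log2 fold change -1.31 ± 0.32, adjusted p = 0.0674). In both Per genes the 2 abstinence hearts nearest to the day 11 level were replicates 4 and 6. Cry1, a repressor that acts with PER, read 21.6, 19.3, 22.1, 21.3 and 22.4 CPM at day 11 and 9.33, 10.6, 10.6, 6.46 and 9.12 CPM after abstinence. It fell 2.31-fold without overlap (log2 fold change -1.21 ± 0.13, adjusted p = 0.00132), and here replicates 1 to 3 were not the ones farthest from day 11. Nr1d1, which represses Arntl, went the other way, from 86.3, 80.7, 82.7, 54.7 and 89.4 CPM to 111, 80.0, 131, 145 and 142 CPM. Its groups overlapped through abstinence replicate 2 (log2 fold change 0.63 ± 0.16, adjusted p = 0.0755). Cry2 (80.3 ± 3.8 CPM, SD, n = 5, against 61.2 ± 17.9) and Nr1d2 (158 ± 17.6 against 113 ± 31.6) were not called, with adjusted p = 0.29 and 0.189.

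Among the output genes, Tef, a PAR bZIP factor that binds D-boxes, stood at 291, 298, 289, 291 and 287 CPM at day 11 and at 99.7, 64.3, 108, 206 and 201 CPM after abstinence. The groups did not overlap (log2 fold change -1.10 ± 0.25, adjusted p = 0.0506). Tspan4, a tetraspanin membrane protein, fell from 46.4 ± 7.3 to 19.5 ± 9.8 CPM (log2 fold change -1.25 ± 0.27, adjusted p = 0.0396). Por, which passes electrons to cytochrome P450 enzymes, sat at the threshold (log2 fold change -0.37 ± 0.10, adjusted p = 0.09996). Dbp, the PAR bZIP factor most used as a read-out of the clock, was not called in spite of wide values. It read 182, 160, 145, 111 and 170 CPM at day 11 and 45.8, 29.4, 80.8, 190 and 161 CPM after abstinence, so replicates 4 and 6 lay within or above the day 11 range and replicates 1 to 3 below it (log2 fold change -0.59 ± 0.39, adjusted p = 0.564). Usp2, a ubiquitin protease, had a log2 fold change of -0.17 ± 0.30 and Nfil3, a repressor of D-box genes, of -0.25 ± 0.18, and neither was called.

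**Figure D1:**
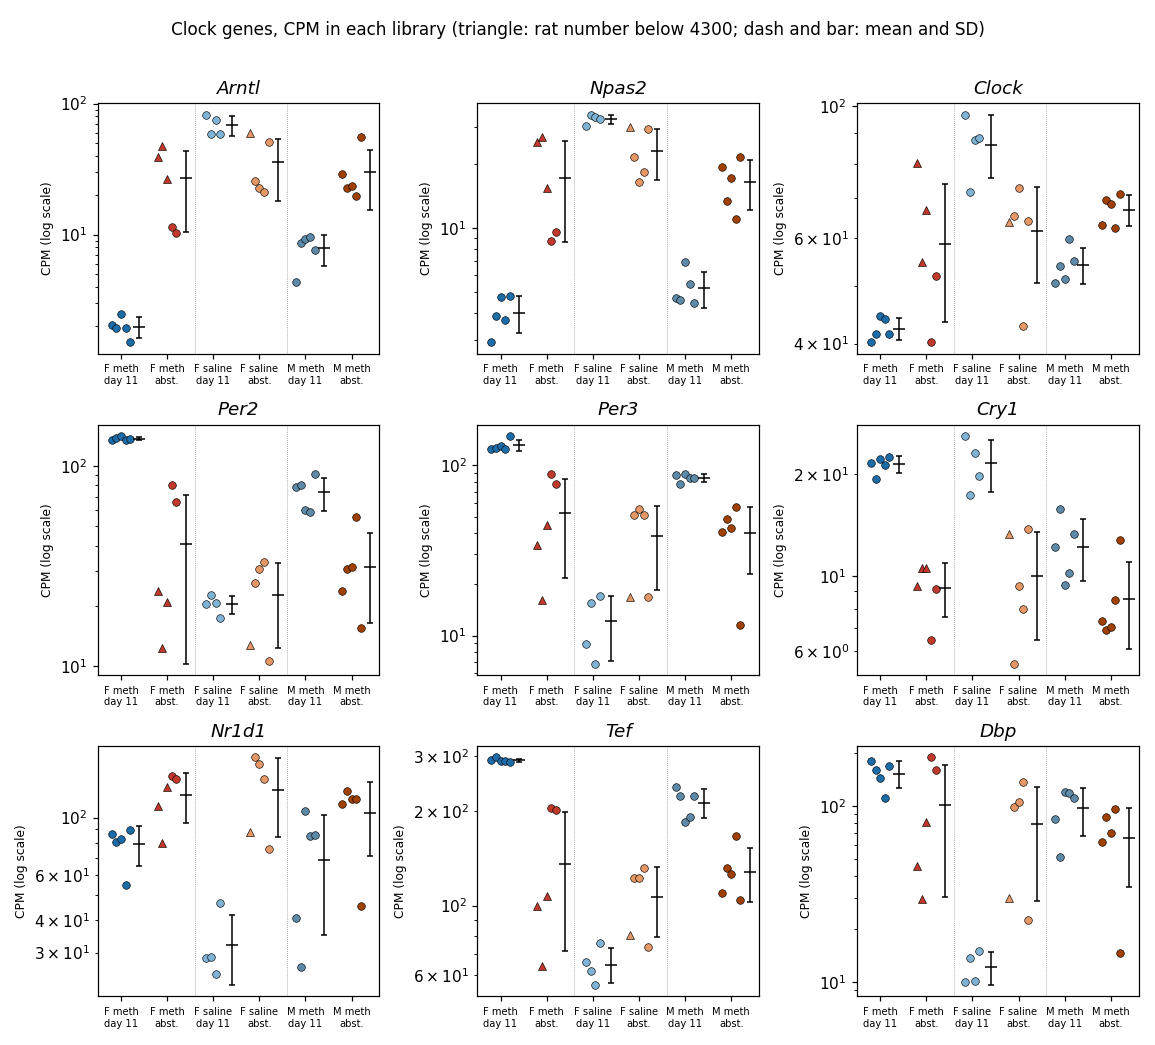
CPM on a log axis of 9 clock genes in each library of 6 groups, with the mean and SD at the right of each group; triangles are rats numbered below 4300. Day 11 methamphetamine hearts lie together, with Per2 at 135 to 141 CPM, whereas the abstinence hearts spread from 12.3 to 80.5 CPM, the triangles apart from the circles.

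The clock genes also varied more among the abstinence hearts than genes at large. Their median SD over libraries was 0.72 on the log2 CPM scale after abstinence and 0.11 at day 11, against 0.25 and 0.12 over all genes tested. In saline-injected females it was 0.42 after abstinence and 0.22 at day 11. Within the abstinence hearts, the 3 rats numbered up to 4000 (replicates 1 to 3) were compared with the 2 numbered above 4300 (replicates 4 and 6). They differed in 15 of 13736 genes tested (0.109%), and 6 of the 15 clock genes were among them. The share among all genes with a symbol was not counted. This fit also held the day 11 hearts, so its p-values rest in part on their smaller spread. They may overstate how far the 3 and the 2 abstinence hearts stood apart. Arntl was higher in the 3 rats (log2 fold change 1.79, adjusted p = 0.0134). Per2 (-1.93, adjusted p = 0.00402), Tef (-1.16, adjusted p = 0.0244), Cry2 (-0.72, adjusted p = 0.0371), Usp2 (-1.35, adjusted p = 0.0371) and Tspan4 (-1.24, adjusted p = 0.0935) were lower in them. Set against the day 11 hearts apart, Arntl was higher by 4.24 in replicates 1 to 3 and by 2.45 in replicates 4 and 6 on the log2 scale, and Per2 lower in both (-2.83 and -0.90). Cry1 was lower by about as much in both (-1.07 and -1.45). Dbp was lower in replicates 1 to 3 (-1.55, adjusted p = 0.027) and not in replicates 4 and 6 (0.19, adjusted p = 0.501). Among the saline-injected abstinence rats only replicate 1 was numbered below 4000, so the ranges could not be compared there. It read 12.8 CPM for Per2 and 30.1 CPM for Dbp, replicate 6, numbered above 4300, read 10.7 and 22.5 CPM, and the other 3 hearts, also above 4300, read 26.2 to 33.0 and 99.3 to 136 CPM. All hearts were isolated within the same 2 h of the morning. The time for each animal within them is not given, and its part was not tested.

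With saline, over the same interval and the same 2 pools, the clock genes changed in another pattern. Of the 15, 5 rose and 1 fell (2.39% of all genes tested were called with saline, 1.03% higher and 1.36% lower, and 48 of the 328 genes with a symbol). Dbp rose from 9.89, 13.6, 10.0 and 15.0 CPM at day 11 to 30.1, 99.3, 106, 136 and 22.5 CPM after abstinence (log2 fold change 2.72 ± 0.47, adjusted p = 0.0215). Nr1d1 rose by 2.00 ± 0.25, Per3 by 1.69 ± 0.40, Nr1d2 by 1.35 ± 0.21 and Tef by 0.73 ± 0.17 on the log2 scale, while Cry1 fell by 1.10 ± 0.22. The change with methamphetamine differed from that with saline in 9 of the 15 clock genes, 3 higher and 6 lower. Over all 14179 genes tested this was 1.23% (0.797% higher and 0.437% lower), and 84 of the 328 genes with a symbol were called. The symbols belong to genes that the study listed for differing between the treatments, in part from the same day 11 libraries, so the count of clock genes follows in part from that choice and is not independent evidence. The differences were 4.68 ± 0.58 for Arntl (adjusted p = 0.000354), 2.57 ± 0.38 for Npas2 and 0.94 ± 0.21 for Clock. They were -3.30 ± 0.69 for Dbp, -2.999 ± 0.57 for Per3, -1.83 ± 0.30 for Nr1d2, -1.82 ± 0.34 for Tef, -1.52 ± 0.40 for Tspan4 and -1.36 ± 0.32 for Nr1d1. The difference was not called for the other 6 clock genes. Cry1 fell with both treatments, and its falls differed by -0.11 ± 0.27 (adjusted p = 0.977). Per2 fell with methamphetamine and read 20.5, 22.7, 20.7 and 17.5 CPM at day 11 with saline, but the difference of the changes missed the threshold (-1.91 ± 0.54, adjusted p = 0.139). After abstinence the levels of the 2 treatments overlapped for Arntl (10.2 to 47.6 CPM with methamphetamine and 21.2 to 59.8 with saline), Npas2 (8.73 to 26.9 and 16.4 to 29.9) and Per2 (12.3 to 80.5 and 10.7 to 33.0). At day 11 those of all 3 genes did not.

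Genes of the extracellular matrix, which fibroblasts and vessel walls lay down around the muscle cells, had 6 called members. Of the 34 genes listed, the 15 identifiers on the study's lists were tested, of which 5 rose after abstinence and 1 fell, with a median log2 fold change of 0.25 (1.89% of all genes tested rose and 1.65% fell, with a median of 0.01). Col15a1 counts by 2 of these identifiers, and the list also holds Medag, which the paper names for adipogenesis. Spon2, a secreted matrix protein of the spondin family, read 2.81, 3.78, 1.99, 2.59 and 3.46 CPM at day 11 and 10.7, 15.7, 9.61, 4.53 and 6.70 CPM after abstinence, with no overlap (log2 fold change 1.67 ± 0.30, adjusted p = 0.0174). Col5a3, a chain of the fibril-forming collagen V, read 17.2, 20.7, 16.5, 17.6 and 18.2 CPM at day 11 and 54.9, 68.6, 43.2, 35.5 and 35.0 CPM after abstinence (1.39 ± 0.17, adjusted p = 0.00291). All abstinence hearts were above all day 11 hearts in both genes. Mmp14, a membrane-bound protease that cuts collagen, rose from 16.9 ± 2.3 to 31.3 ± 8.5 CPM (0.89 ± 0.17, adjusted p = 0.0249). Loxl1, which crosslinks elastin, rose from 16.3 ± 2.2 to 27.0 ± 3.8 CPM (0.73 ± 0.12, adjusted p = 0.0102). Elastin itself (Eln) read 38.4, 47.4, 37.0, 43.6 and 35.6 CPM at day 11 and 74.0, 83.0, 68.4, 52.9 and 44.6 CPM after abstinence. Its groups overlapped only between abstinence replicate 6 and day 11 replicate 2 (0.68 ± 0.15, adjusted p = 0.0452). Timp3, an inhibitor of the matrix proteases, fell from 108 ± 10.1 to 81.8 ± 11.1 CPM (-0.39 ± 0.10, adjusted p = 0.0797). In this list too replicates 1 to 3 were the higher ones for Col5a3, Mmp14, Loxl1, Spon2 and Eln, although none of these differed between the 2 ranges of animal number (adjusted p from 0.238 to 0.699).

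The same genes started from other levels in saline-injected females. Eln read 183, 179, 186 and 164 CPM at day 11 and 74.5, 71.5, 62.1, 64.8 and 76.5 CPM after abstinence, a fall of 1.33 ± 0.08 on the log2 scale (adjusted p = 1.26e-05). Of the 15 matrix identifiers, 11 fell with saline and none rose (1.36% of all genes tested fell). The difference between the treatments was called for 10 (Medag and an identifier of Col15a1 among them), all higher with methamphetamine (0.797% of all genes tested were higher). These identifiers were on the study's lists for differing between the treatments, in part at day 11, so both counts follow in part from that choice and are not independent evidence. It was 2.02 ± 0.19 for Eln (adjusted p = 9.93e-06), 2.24 ± 0.36 for Spon2, 2.05 ± 0.24 for Col5a3, 1.56 ± 0.22 for Mmp14 and 1.28 ± 0.18 for Loxl1. After abstinence Eln read 44.6 to 83.0 CPM with methamphetamine and 62.1 to 76.5 CPM with saline. At day 11 the ranges were 35.6 to 47.4 and 164 to 186 CPM.

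**Figure D2:**
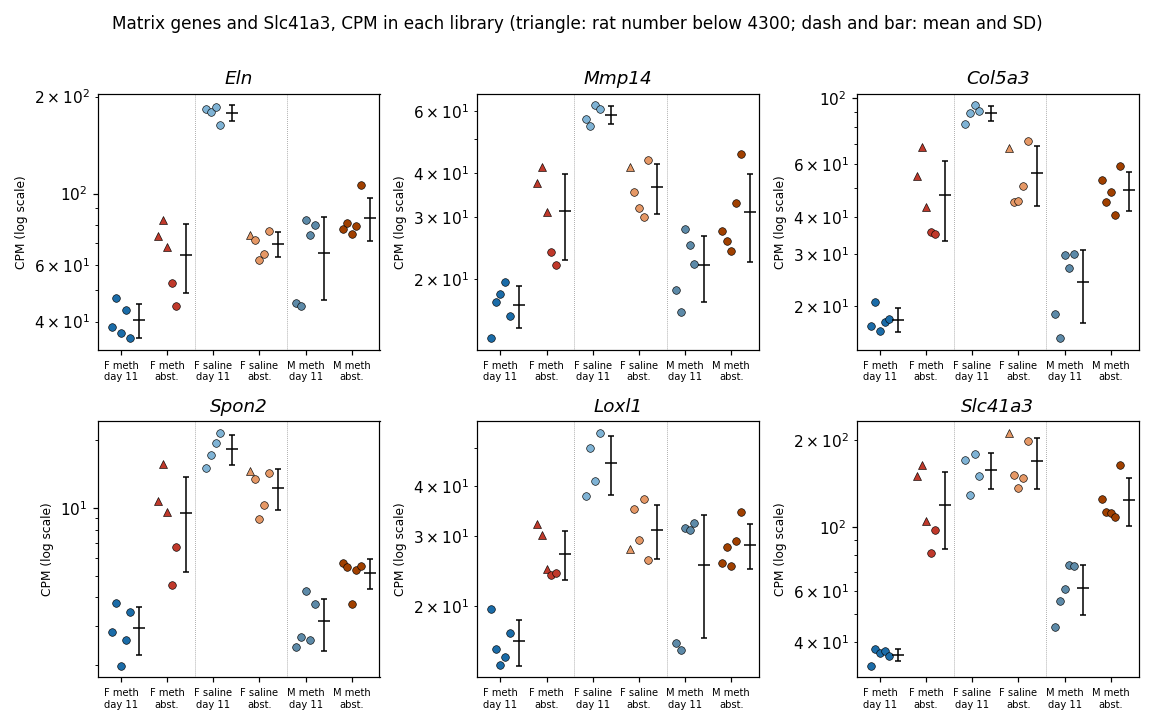
CPM on a log axis of 5 matrix genes and the transporter gene Slc41a3 in each library, with the mean and SD at the right of each group; triangles are rats numbered below 4300. Eln lies at 35.6 to 47.4 CPM in day 11 methamphetamine hearts and at 164 to 186 CPM with saline, and the abstinence groups overlap.

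Among the other genes that rose, Slc41a3, a member of a family of magnesium transporters, had the smallest p of the genes with a symbol. It read 33.2, 38.0, 36.7, 37.3 and 36.0 CPM at day 11 and 150, 164, 105, 81.1 and 97.8 CPM after abstinence, a 3.3-fold rise with no overlap (log2 fold change 1.72 ± 0.17, adjusted p = 0.000924). With saline its change was 0.12 ± 0.14, and the treatments differed (1.61 ± 0.24, adjusted p = 0.00174). Chst15, a sulfotransferase of chondroitin sulfate, rose from 12.4 ± 1.4 to 22.8 ± 5.2 CPM (0.89 ± 0.15, adjusted p = 0.0149). Cx3cl1, the chemokine fractalkine, rose from 28.5 ± 2.8 to 43.1 ± 3.9 CPM (0.60 ± 0.09, adjusted p = 0.0082). Tgm2, a transglutaminase that crosslinks proteins, rose from 240 ± 15.9 to 308 ± 16.1 CPM (0.36 ± 0.07, adjusted p = 0.0246). In these 4 genes every abstinence heart was above every day 11 heart. Kcnk3, a background potassium channel, rose by 0.34 ± 0.09 (adjusted p = 0.0728). One of the 2 identifiers named Fcgr2a, an Fc receptor of white blood cells, rose by 1.17 ± 0.30 (adjusted p = 0.0738), and the other did not pass the test (1.17 ± 0.33, adjusted p = 0.102). LOC103694908 rose by 1.05 ± 0.26 (adjusted p = 0.066). How reads that fit several of these loci were counted is not stated in the sources used here.

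Among the other genes that fell, Rapgef5, an exchange factor for Rap GTPases, read 102, 110, 98.3, 113 and 96.8 CPM at day 11 and 43.9, 33.7, 34.8, 55.6 and 53.6 CPM after abstinence (log2 fold change -1.22 ± 0.13, adjusted p = 0.00135). Rev1, a DNA polymerase of translesion synthesis, read 47.8 to 56.1 CPM at day 11 and 28.2 to 37.4 CPM after abstinence (-0.63 ± 0.09, adjusted p = 0.0051). Neither gene's groups overlapped. C1qtnf7, a secreted protein of the C1q and TNF related family, fell from 20.7 ± 1.8 to 11.9 ± 1.9 CPM (-0.79 ± 0.12, adjusted p = 0.00761). Maco1, a protein of the endoplasmic reticulum, fell from 32.1 ± 1.3 to 22.9 ± 1.1 CPM (-0.48 ± 0.07, adjusted p = 0.00799). Mid1ip1, which promotes fatty acid synthesis, fell from 141 ± 12.6 to 78.0 ± 16.9 CPM (-0.85 ± 0.13, adjusted p = 0.00813). Rhobtb1 stood at 210, 261, 204, 251 and 167 CPM at day 11 and at 53.0, 47.5, 49.9, 155 and 113 CPM after abstinence. It fell (-1.38 ± 0.30, adjusted p = 0.0396), and its replicates 4 and 6 were again nearer to day 11. The difference between the ranges of animal number was -1.41 (adjusted p = 0.0134), from the fit that also held the day 11 hearts. F3, the tissue factor that starts coagulation, fell by 0.96 ± 0.17 (adjusted p = 0.0174). LOC100911766 fell by 1.15 ± 0.24 (adjusted p = 0.0373). Its values ran beside those of Tspan4 in each library, 43.3 to 59.1 CPM against 39.4 to 54.6 at day 11, and shared reads were not tested.

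The remaining lists had few members with an identifier. Of 16 genes listed for the glucocorticoid response, only the 3 on the study's lists were tested, and all 3 were called (3.53% of all genes tested): Zbtb16, a zinc finger repressor, and Tsc22d3, which encodes GILZ, fell, and Cdkn1a, the cell cycle inhibitor p21, rose. Zbtb16 read 66.7, 65.8, 65.6, 64.0 and 22.1 CPM at day 11 and 15.9, 10.4, 12.5, 41.9 and 23.9 CPM after abstinence (log2 fold change -1.43 ± 0.36, adjusted p = 0.0738). Day 11 replicate 6 alone lay within the abstinence range. Tsc22d3 fell from 151 ± 24.9 to 89.4 ± 21.3 CPM without overlap (-0.75 ± 0.16, adjusted p = 0.0391). Cdkn1a rose from 17.7 ± 6.2 to 38.7 ± 17.6 CPM with overlap through day 11 replicate 4 (1.12 ± 0.29, adjusted p = 0.0735). Herpud1, of the pathway that clears misfolded proteins from the endoplasmic reticulum, fell from 296 ± 7.3 to 197 ± 39.6 CPM (-0.58 ± 0.11, adjusted p = 0.0257) as the single member tested of the ER stress list. Dnajb4, a co-chaperone of HSP70, was 1 of 2 heat shock members tested and fell by 0.44 ± 0.08 (adjusted p = 0.0236). Ephx1, a microsomal epoxide hydrolase, fell by 0.93 ± 0.19 (adjusted p = 0.0338) as the single member tested of the oxidative stress list. Kcnk3 was the called 1 of 2 ion channel genes. Of the glucose list 4 members were tested and 0 were called, and of the immediate early, fatty acid oxidation, cell cycle and catecholamine lists 1 member each was tested and 0 were called. The interferon list had 2 tested and 0 called. The hypertrophy and oxidative phosphorylation lists had no member with an identifier. The other 53 called genes with a symbol comprised 22 that rose, by 0.28 to 0.88, and 31 that fell, by log2 fold changes from -0.92 to -0.28.

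Markers of other cells that heart tissue can hold were checked where an identifier existed. Ptprc, the leukocyte surface protein CD45, read 17.8, 23.0, 17.9, 19.8 and 22.2 CPM at day 11 and 24.9, 20.7, 73.9, 46.3 and 34.3 CPM after abstinence, highest in replicates 3 and 4 (1.00 ± 0.28, adjusted p = 0.101). Myl4, the atrial myosin light chain, read 2.98 to 5.61 CPM at day 11 and 2.17, 6.66, 34.3, 24.5 and 7.03 CPM after abstinence, highest in the same 2 hearts (1.88 ± 0.57, adjusted p = 0.128). In saline-injected females Myl4 read 5.89 to 91.1 CPM at day 11 and 1.91 to 4.55 CPM after abstinence. That fall was called (log2 fold change -3.49), and so was the difference between the treatments (5.38 ± 0.98, adjusted p = 0.011, interaction contrast). Hmgb2, a chromatin protein abundant in dividing cells, was also highest in methamphetamine abstinence replicates 3 and 4. It read 55.2 and 37.8 CPM there, against 17.2 to 26.0 CPM in the other 8 hearts (0.73 ± 0.23, adjusted p = 0.141). Pdgfrb, a pericyte receptor, read 113 to 140 CPM at day 11 and 112 to 135 CPM after abstinence. Gcat, an enzyme of threonine breakdown, had a log2 fold change of -0.11 ± 0.10 (adjusted p = 0.713). These are 1 of 10 leukocyte, 1 of 7 atrial and 1 of 7 pericyte markers listed, and no fibroblast, endothelial, erythroid, adipocyte or Schwann cell marker had an identifier. Without abstinence replicates 3 and 4 the number of called genes was 293, and the clock and matrix lists had 9 and 6 called members. Among genes without a symbol, the 2 largest rises rested on abstinence replicate 6. ENSRNOG00000058105 read 195 CPM there against 2.36 to 6.79 in the other 4 abstinence hearts and 1.06 to 2.37 at day 11, and ENSRNOG00000061299 read 144 CPM against 1.80 to 5.60 and 0.755 to 1.85. The 2 deepest falls were those of ENSRNOG00000034228 (2.86 ± 0.79 to 1.01 ± 0.44 CPM) and ENSRNOG00000053706 (7.64 ± 1.86 to 2.77 ± 0.57 CPM), both without overlap.

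Over all genes the methamphetamine and saline intervals shared part of their changes. Of 13568 genes tested in both, 482 were called with methamphetamine and 319 with saline, and 79 in both, which is 16.4% of the former and 24.8% of the latter. Among the 79, 68 had the same sign and 11 the opposite. Of the 482, 352 (73.0%) had the same sign with saline, but the median size was 0.63 with methamphetamine and 0.17 in the same direction with saline. Over all 13568 genes the Pearson correlation of the 2 changes was 0.23. The share of all genes with the same sign was not counted, so the 73.0% has no background beside it. The difference of the 2 changes was called in 175 of 14179 genes (1.23%), 113 higher and 62 lower with methamphetamine. Of these, 86 were also called between day 11 and abstinence with methamphetamine, 85 with the same sign. This difference contains the change with methamphetamine and uses the same libraries, so that overlap is in part built in and is not independent evidence. Only the methamphetamine and saline intervals themselves share no library.

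**Figure D3:**
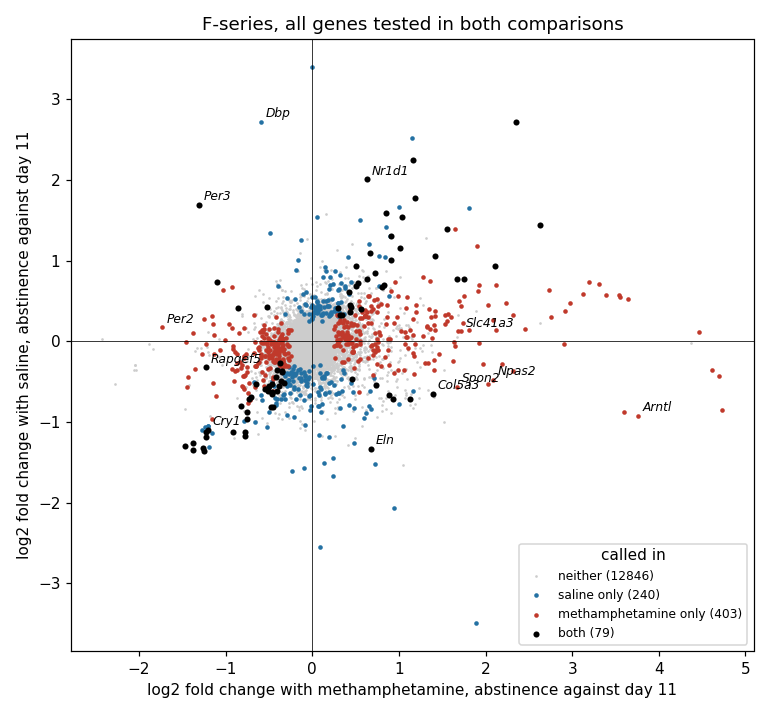
log2 fold change from day 11 to abstinence of 13568 genes with methamphetamine (x axis) and with saline (y axis), coloured by the comparison in which a gene was called. Arntl, Npas2 and Col5a3 lie far to the right and below 0 on the y axis, Per3 lies left and above 0, and Cry1 lies low on both axes.

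**Figure D4:**
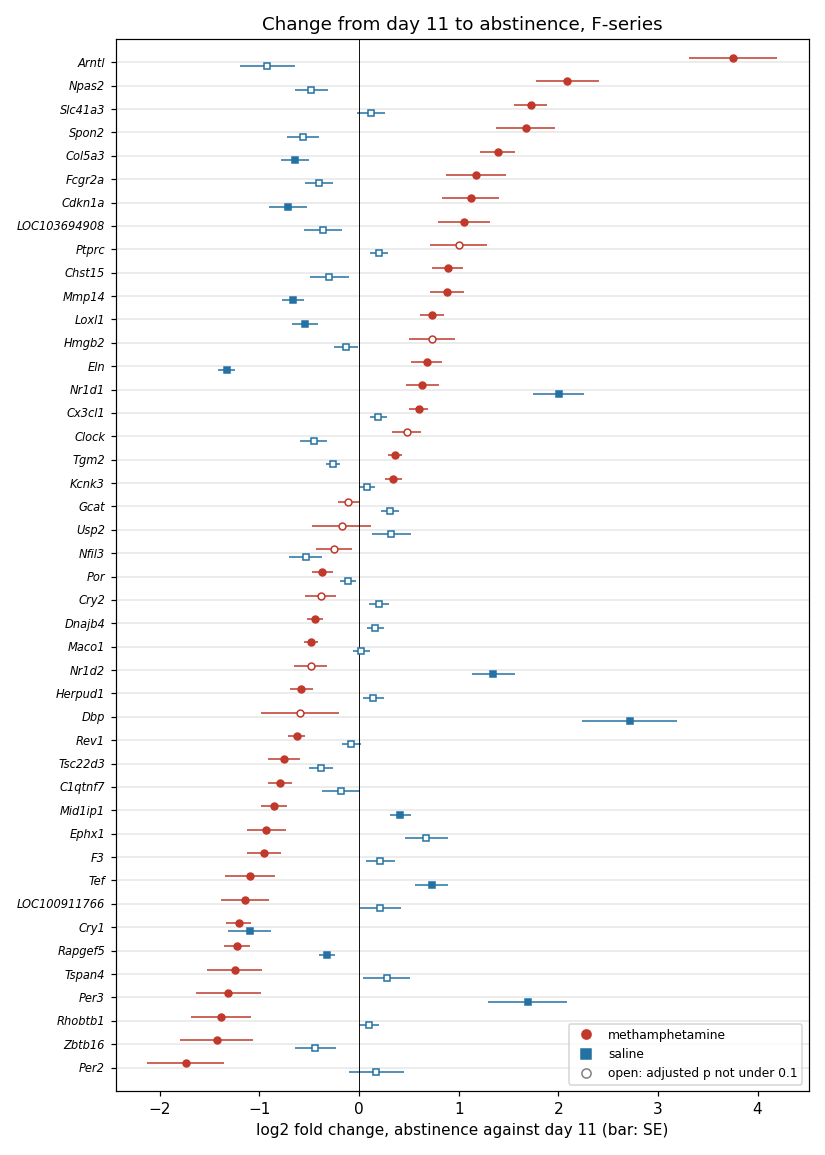
log2 fold change from day 11 to abstinence, with its SE, of the 44 named genes with methamphetamine (circles) and saline (squares); open symbols have an adjusted p of 0.1 or more. The matrix genes Eln, Mmp14 and Col5a3 are filled on both sides of 0, and Cry1 is lower in both.

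In methamphetamine-treated males the same interval changed 136 of 13700 genes (0.993%), 73 higher (0.533%) and 63 lower (0.46%), and 58 of them were also called in females, all 58 with the same sign. These are 12.0% of the 482 female calls and 43.3% of the 134 male calls among genes tested in both. Of the 482 female calls, 419 (86.9%) had the same sign in males. Over all 13561 genes tested in both, the Pearson correlation of the changes was 0.26. Their same-sign share was not counted, so the 86.9% has no background beside it. Among the 15 clock genes 3 rose and 4 fell in males, where 39 of the 328 genes with a symbol were called. Arntl rose by 1.92 ± 0.27 (adjusted p = 0.00367), Npas2 by 1.66 ± 0.18 (adjusted p = 0.000757) and Clock by 0.31 ± 0.06 (adjusted p = 0.0414), and Per2 fell by 1.23 ± 0.23 (adjusted p = 0.0328). Of the matrix genes 1 rose in males, Col5a3, by 1.02 ± 0.16 (adjusted p = 0.00742), and 1 fell. The change in females minus that in males was called in 4 of 14100 genes (0.0284%), 3 higher (0.0213%) and 1 lower (0.00709%), and 0 of the 328 genes with a symbol were among them. The unadjusted p was under 0.05 in 1000 genes in that test, DESeq2 called 59, and limma voom with sample quality weights called 53. For Arntl the difference was 1.84 ± 0.58 (adjusted p = 0.382) and for Slc41a3 0.72 ± 0.23 (adjusted p = 0.382). For these named genes neither a difference between the sexes nor its absence was shown.

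The number of genes called rested on single libraries. Leaving out any 1 of the day 11 hearts lowered it from 485 to between 166 and 227, leaving out abstinence replicate 3 gave 277, and leaving out abstinence replicate 2 gave 1131. With the range of animal numbers as a covariate 75 genes were called, of which 4 were clock genes and 1 a matrix gene, and with replicate 5 kept in both groups 152 were called, of which 2 and 0.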

How the data were processed

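The authors deposited 2 tables for 47 libraries. The first holds raw read counts of 32883 Ensembl genes and was used here. The other, the same counts after normalization by the authors, was not used. Per the labels and the paper's methods, RNA of left ventricular tissue was made into TruSeq mRNA libraries, read as paired ends, trimmed with Trimmomatic 0.38, aligned to Rnor_6.0 with HISAT2 2.1.0, counted per gene, and normalized with DESeq2 1.20.0. How reads matching several genes were counted is not given in the sources used here.

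Genes were tested in R 4.3.3 by quasi-likelihood fits of edgeR 4.0.16 on the libraries of each comparison alone, after filterByExpr at its defaults and TMM scaling. A call needed a Benjamini-Hochberg adjusted p below 0.1. CPM use TMM factors over the 39 libraries without replicate 5. Values are mean ± SD over libraries, and log2 fold changes are given ± SE. Differences between changes are interaction contrasts. Alternatives used DESeq2 1.42.0, limma 3.58.1 and each library left out in turn. On simulated data with 200 genes changed 2-fold, 99% were called in the main comparison, and 9.17% of its calls were false. The changed genes were drawn from those with a mean above 5 CPM. Both groups were given the same dispersion, and no library stood apart. The real groups differed in spread, so these rates do not carry over to the comparison itself.

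Named genes were, among called genes with a symbol and a mean of at least 1 CPM, the 10 largest changes and the 5 smallest p in each direction, the 10 smallest p in the difference from saline, the leading called members of each list, all clock genes, and Ptprc, Hmgb2 and Gcat. Members and lists were chosen with earlier results of these data known. Timp3, Myl4 and Pdgfrb were named from the lists after their values were seen. The 328 symbols come from the study's tables, whose fold changes and p-values were not used. Each library came from 1 heart. The labels do not say whether a replicate number pairs libraries, and no pairing was used in the main fits. The correlation of deviations over the 5 pairs ran from -0.15 to 0.04, which cannot exclude pairing. Day 11 replicate 3 of the saline females, set aside by the study, was not used here. Depth limits low genes. The SE of a log2 fold change comes from a fit with 1 dispersion per gene for both groups, although the groups differed in spread.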

Additional observations from a re-analysis of the deposited data

Results flagged for a closer look

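In 7 of 88 groups of 5 libraries tested among the named genes, 1 library stood apart from the other 4 by Dixon's criterion, which chance meets in about 5% of groups. Zbtb16 read 22.15 CPM in day 11 replicate 6 and 63.95 to 66.69 CPM in the other day 11 hearts. Nr1d1 read 54.71 CPM in day 11 replicate 4 against 80.66 to 89.4 CPM. Per3 read 148.6 CPM in day 11 replicate 6 against 124.5 to 129.1 CPM. Dnajb4 read 119.5 CPM in day 11 replicate 1 against 133.9 to 137.2 CPM. Herpud1 read 283.2 CPM in day 11 replicate 3 against 296.8 to 301.4 CPM. After abstinence, Kcnk3 read 127.1 CPM in replicate 3 against 162.8 to 168.3 CPM. Fcgr2a read 48.16 CPM in abstinence replicate 2 against 16.68 to 25.28 CPM.

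The change from day 11 to abstinence differed between methamphetamine and saline in 30 of the 44 named genes, by the interaction contrast of the fit over 19 libraries, which called 1.23% of all genes tested. The named genes include the 10 chosen for the smallest p in this contrast, so the count is partly fixed by the choice. The difference was higher with methamphetamine, on the log2 scale, for Arntl (4.68), Npas2 (2.57), Spon2 (2.24), Col5a3 (2.04), Eln (2.02), Cdkn1a (1.84), Slc41a3 (1.61), Fcgr2a (ENSRNOG00000046663) (1.57), Mmp14 (1.56), LOC103694908 (1.42), Loxl1 (1.28), Chst15 (1.19), Clock (0.94) and Tgm2 (0.63). It was lower with methamphetamine for Dbp (-3.30), Per3 (-2.999), Nr1d2 (-1.83), Tef (-1.82), Ephx1 (-1.60), Tspan4 (-1.52), Rhobtb1 (-1.47), Nr1d1 (-1.36), LOC100911766 (-1.35), Mid1ip1 (-1.26), F3 (-1.16), Rapgef5 (-0.90), Herpud1 (-0.72), Dnajb4 (-0.60), Rev1 (-0.54) and Maco1 (-0.50). None of the 44 differed between females and males in this change at an adjusted p under 0.1 by edgeR.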

How the results depend on the processing

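In the comparison of abstinence with day 11 after methamphetamine, the direction of the named genes held except for 8 of 1056 values. All 8 were of genes not called in the main comparison. Usp2 ran from -0.49 to 0.017 with each library left out, turning without abstinence replicate 2. It turned to 0.22 without abstinence replicates 2 and 3, and to 0.48 with the range of numbers as a covariate (adjusted p = 0.322). With abstinence replicates 1 to 3 only, Usp2 was called lower (-0.87, adjusted p = 0.0356). With the abstinence rats numbered above 4300 (replicates 4 and 6) only, it was called higher (0.48, adjusted p = 0.02). Cry2 turned to 0.0017 and Dbp to 0.19 both with those 2 rats only and with the covariate. Of the 35 named genes called, Cry1, Rapgef5 and Rev1 were called under all 24 alternatives. The calls of Por, Nr1d1, Kcnk3 and Zbtb16 were lost in 15, 14, 13 and 12 of 24. Of the 35 calls, 28 were lost with replicate 5 kept and 26 with the covariate. Arntl, Npas2, Slc41a3 and Col5a3 were among the 28 (adjusted p = 0.622, 0.308, 0.121 and 0.139 with replicate 5 kept).

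Counts of genes called changed more than the directions. With methamphetamine in females, 485 became 214 at an adjusted p under 0.05, 877 with DESeq2, 1006 with limma voom and sample quality weights (tool and weights changed together), 152 with replicate 5 kept, 1231 in a single fit of 8 groups, 1104 with those 2 rats only, 75 with the covariate, 802 without abstinence replicates 2 and 3, 293 without replicates 3 and 4 (the last 2 chosen after seeing the data, as was the fit of the rats numbered up to 4000 alone, which gave 416), and 166 to 1131 with each library left out. The cause of these shifts was not tested. With the lone fit of 2 rats the spread rests mainly on the day 11 hearts. With saline in females, 327 became 159, 516, 1527, 164 and 594 under the first 5 of these, and 114 to 494 with each library left out. For the difference between the treatments, 175 became 114, 328, 445, 33 and 395, and 121 to 325. In males, 136 became 58, 308, 275, 29 and 86, also 206 without the low-count filter, and 60 to 198. For females minus males, 4 became 2, 59, 53, 7 and 27, also 7 without the filter and 2 with at least 10 counts in every library, and 2 to 53.

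Whether same replicate numbers mark paired animals is not given in the labels, and 2 of 5 libraries correlated best with their own number. With a replicate block 285 genes were called with methamphetamine in females, 75 with saline and 70 in males, and 145 and 3 for the 2 differences. RLE factors left the counts of calls within 1.5 times. The clock list had 9 called members, 5 at an adjusted p under 0.05, 4 with the covariate, 2 with replicate 5 kept and 3 to 12 with each library left out. The matrix list had 6, and 1, 0 and 4 to 8 under the last 3. Depth limits genes such as Arntl at day 11, with 17 to 25 counts per library.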
